A study of Homo sapiens with 17 samples.

Results

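RNA of 10 clade B serpins of squamous epithelium was measured in 17 RNA-seq libraries of 2 squamous cancer cell lines. The 10 genes are SERPINB1, SERPINB2, SERPINB3, SERPINB4, SERPINB5, SERPINB7, SERPINB8, SERPINB10, SERPINB12 and SERPINB13. They were taken by gene symbol from the 57820 genes listed for each library, and each symbol matched 1 row. SERPINB6, SERPINB9 and SERPINB11, the other 3 clade B genes, served for comparison. The study asked what the e1 enhancer near SOX2, and SOX2 itself, do to gene expression in squamous cancer.

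KYSE140, an esophageal squamous cancer line with high SOX2, gave 13 libraries. In the CRISPRi experiment, cells that stably expressed a dCas9 repressor carried e1-targeting guide 1 or 2 or, as controls, negative-control guide 1 or 2, which have no target in the genome. In the knockout experiment, cells that stably expressed Cas9 carried guide 2, 3 or 4 against the SOX2 coding region or, as controls, a guide to AAVS1 or to Chr2.2, so the controls were cut as well. In the drug experiment, 2 cultures received 0.5 µM ARV-771, a degrader of BET bromodomain proteins, for 6 h and 2 received DMSO for 6 h. SKMES1, a lung squamous cancer line with low SOX2, gave 4 libraries of a CRISPRa experiment, in which dCas9-VP64 cells carried e1 guide 1 or 3 or negative-control guide 1 or 2. The guide-bearing cells were infected and selected pools of 1 line each, and the libraries of a group differ in their guide, so the spread within a group mixes guide and culture, and p-values measure only the spread between these libraries.

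Serpins are protease inhibitors that offer a flexible loop as bait, and a protease that cuts the loop becomes trapped on the serpin. Clade B members lack a classical signal peptide and mostly stay inside the cell, although several are also released. In stratified squamous epithelium, several of them are made as cells leave the basal layer, and SERPINB3 and SERPINB4 were first known as squamous cell carcinoma antigens 1 and 2.

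In the GRCh37 assembly, 9 of the 10 genes lie in 1 cluster on chromosome 18 that spans 543 kb, from the first base of SERPINB5 at 61144191 to the last base of SERPINB8 at 61687013. The order along the chromosome is SERPINB5, SERPINB12, SERPINB13, SERPINB4, SERPINB3, SERPINB7, SERPINB2, SERPINB10 and SERPINB8. SERPINB3 and SERPINB4 are on the minus strand and the other 7 of the cluster are on the plus strand. SERPINB1 lies apart, on chromosome 6.

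RefSeq promoter windows, which run from 250 bases before to 50 bases after a start (build GRCh38.p14), were given for 9 of the 10 genes, in 12 windows. Each window matched GRCh37 exactly once. The windows were searched on both strands for the AP-1 word TGANTCA and for the SOX words ACAAAG and ACAATG. The AP-1 word stood in a window of 6 of the 9 genes, against 9.37% of the 27305 genes in the RefSeq table. It was in none of the windows of SERPINB1, SERPINB3 and SERPINB4. ACAAAG stood in windows of 5 of the 9 genes (19.0% of all genes in the table) and ACAATG also in 5 (12.97%). These are matches of letters and say nothing of binding. The AP-1 matches nearest to the start are shown with 25 bases on each side and the word in capitals, so that the word and its surroundings can be compared between genes. Genes with and without the word were among those that rose in the SOX2 knockout, SERPINB3 and SERPINB4 being without it. The name gives the gene, the position of the word's first base relative to the start, and the interval in GRCh37, all on the plus strand.
SERPINB5, -146, chr18:61144020-61144076: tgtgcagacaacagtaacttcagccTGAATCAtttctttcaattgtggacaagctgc
SERPINB12, -45, chr18:61209532-61209588: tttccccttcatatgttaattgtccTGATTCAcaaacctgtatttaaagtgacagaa
SERPINB13, -87, chr18:61254465-61254521: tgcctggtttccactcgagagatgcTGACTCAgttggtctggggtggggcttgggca
SERPINB7, -39, chr18:61442588-61442644: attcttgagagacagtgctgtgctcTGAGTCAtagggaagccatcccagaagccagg
SERPINB2, -102, chr18:61554812-61554868: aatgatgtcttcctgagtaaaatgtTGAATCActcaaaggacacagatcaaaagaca
SERPINB8, -28, chr18:61637262-61637318: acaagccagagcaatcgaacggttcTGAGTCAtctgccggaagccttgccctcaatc
The letter in the open place of the word was A in SERPINB5 and SERPINB2, G in SERPINB7 and SERPINB8, T in SERPINB12 and C in SERPINB13.

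SERPINB3 and SERPINB4 are near-copies of each other. Their windows, printed whole because the pair differed widely in level, were 98.7% identical over 300 bases and differed at 4 positions, shown in capitals.
SERPINB3, chr18:61329078-61329377, minus strand: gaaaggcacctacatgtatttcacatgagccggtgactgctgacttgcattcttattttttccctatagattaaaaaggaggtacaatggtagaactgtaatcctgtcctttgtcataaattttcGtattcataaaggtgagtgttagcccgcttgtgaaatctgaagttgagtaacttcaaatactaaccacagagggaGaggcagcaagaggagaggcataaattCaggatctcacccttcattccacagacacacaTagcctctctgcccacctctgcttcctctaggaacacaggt
SERPINB4, chr18:61311441-61311740, minus strand: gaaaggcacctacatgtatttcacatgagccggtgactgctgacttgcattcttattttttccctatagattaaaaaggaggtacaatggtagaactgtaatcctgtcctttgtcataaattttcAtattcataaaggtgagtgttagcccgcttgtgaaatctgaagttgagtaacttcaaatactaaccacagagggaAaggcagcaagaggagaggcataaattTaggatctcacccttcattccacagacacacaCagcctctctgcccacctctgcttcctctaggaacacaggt
Counted from 1 at the window's 5′ end, with the SERPINB3 base first, the differences were G126A, G201A, C228T and T260C. Their transcripts were 95.7% identical over 1707 aligned bases, with a longest identical run of 129 bases. RSEM, the counting program, divides reads that fit both, and in 5 of the 5 libraries in which both counts were fractional, the 2 fractions summed to a whole number within 0.015. The split between SERPINB3 and SERPINB4 is therefore uncertain, and their sum does not depend on it.

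Total expected counts, the reads that RSEM assigned to genes, ran from 7260730 to 15781463 per library, so 3 counts corresponded to between 0.190 and 0.413 CPM. SOX2 moved as the labels say, from 379 and 365 TPM (a level per transcript length and library total) to 120 and 128 in e1 repression, from 397 and 428 to 103, 125 and 221 in the knockout, from 236 and 223 to 9.80 and 10.5 with ARV-771, and from 1.68 and 1.53 to 224 and 316 in e1 activation. All 10 squamous markers averaged at least 1 TPM over the KYSE140 libraries. Within single KYSE140 groups, 10 did so only in e1 repression and in the SOX2 knockout. In the CRISPRi controls, the knockout controls, DMSO and ARV-771, 9 of 10 did. Over the SKMES1 libraries 6 of 10 did, and KRT5, DSG3, KRT13 and IVL averaged under 1 TPM. Both endothelial markers measured averaged under 1 TPM in both lines, and PTPRC, LYZ, CD3E and CD79A, 4 of 5 leukocyte markers, did as well.

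SERPINB5 was the most abundant of the 10 in every KYSE140 library outside the SOX2 knockout, and SERPINB2 took that place in the 3 knockout libraries. The summed level of the 10 genes was 53.3 and 59.3 TPM in the CRISPRi controls and 223 and 174 TPM with e1 guides. It was 103 and 123 TPM in the knockout controls and 910, 828 and 614 TPM with SOX2 guides. The DMSO cultures had 62.9 and 66.1 TPM and the ARV-771 cultures 37.6 and 43.6 TPM. In SKMES1 the sum was 91.4 and 158 TPM with control guides and 89.1 and 88.4 TPM with e1 guides. Only in e1 repression and in the SOX2 knockout did every treated library stand above every control.

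**Figure D1:**
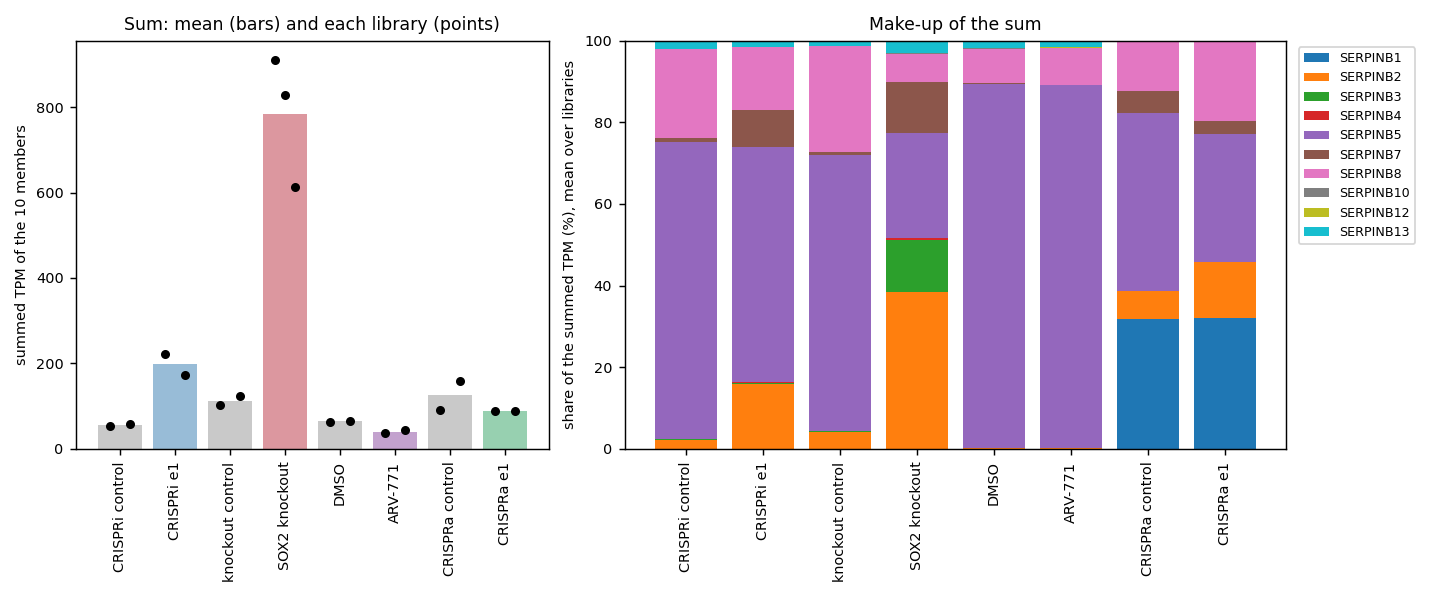
The left panel plots the summed TPM of the 10 genes in each library (points) with the group mean (bars), and the right panel the mean share of each gene in that sum in percent. SERPINB5 made up 67.7% of the sum in the knockout controls and 25.8% in the SOX2 knockout, where SERPINB2 made up 38.5%.

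Control cells of the same line also differed between experiments. SERPINB2 averaged 1.18 ± 0.431 TPM (SD, n = 2) in the CRISPRi controls, 4.65 ± 0.863 TPM (n = 2) in the knockout controls and 0.135 ± 0.191 TPM (n = 2) in DMSO. SERPINB8, in the same order, averaged 12.4 ± 3.45, 29.2 ± 1.92 and 5.27 ± 0.926 TPM. The ranges of the 3 control groups did not overlap for SERPINB2, SERPINB3, SERPINB5, SERPINB7 or SERPINB8. For SERPINB7 this rested on 1 to 10 counts per library, near the floor, and for SERPINB3 on 0 to 2.67 counts, under the floor of 3. The share of all genes whose ranges were apart in these groups was not counted, so this is a description only. Each experiment was compared only with its own controls.

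**Figure D2:**
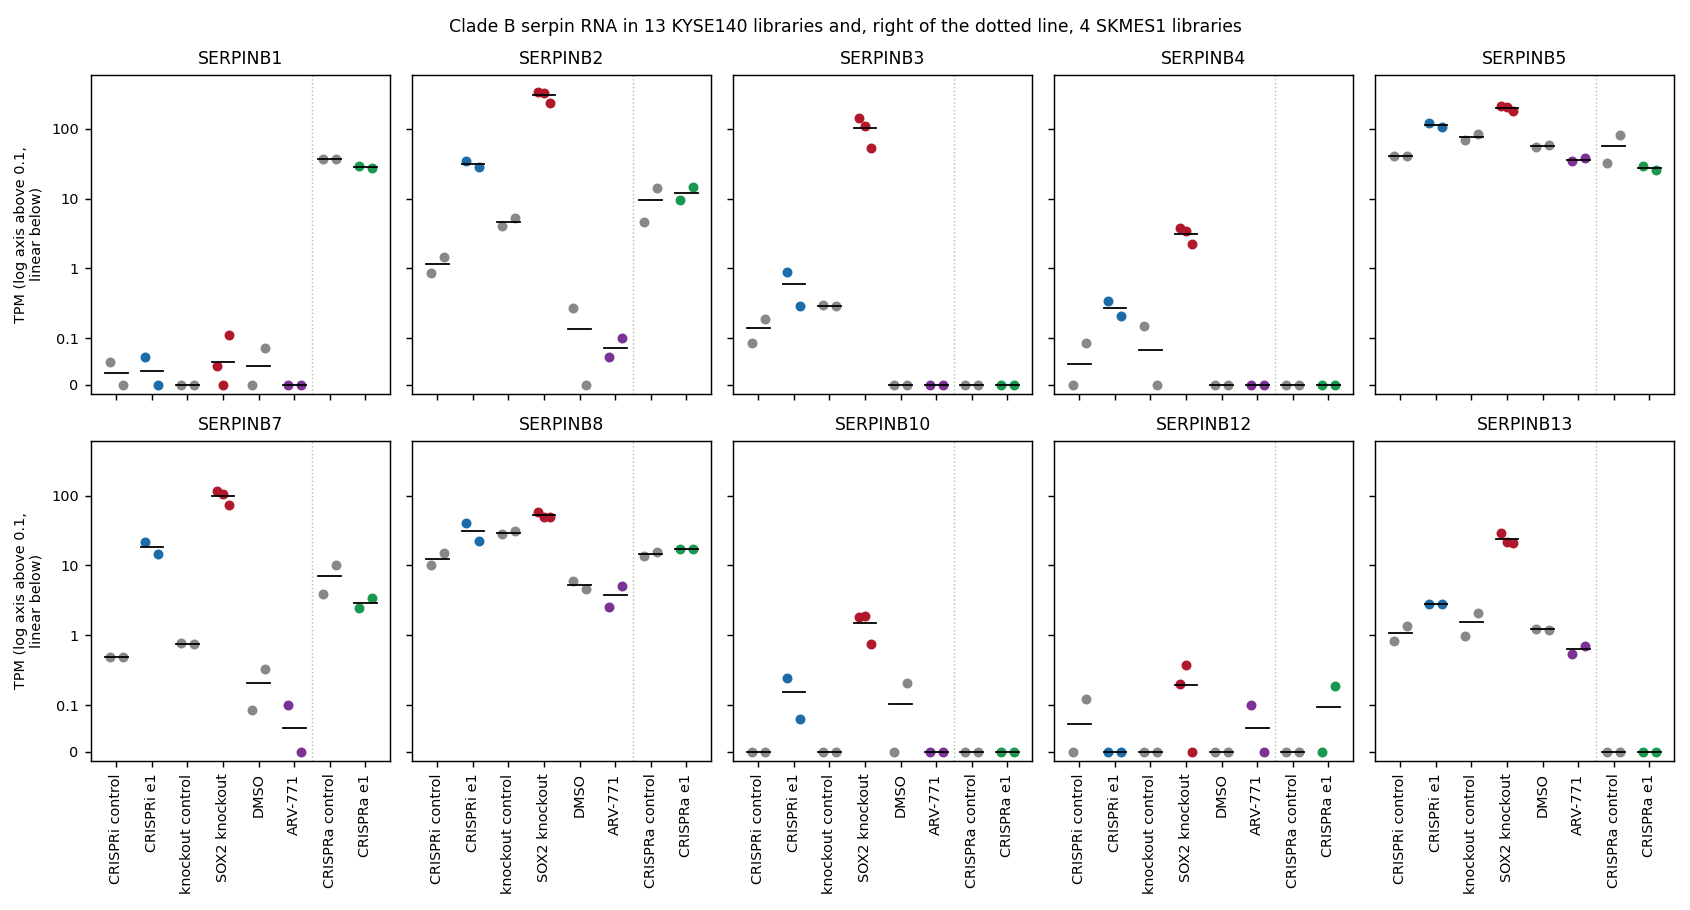
Each panel plots 1 gene, with its level in TPM in every library (points; log axis above 0.1, linear below) and the group mean (line); the dotted line divides KYSE140 from SKMES1. SERPINB2, SERPINB5, SERPINB7, SERPINB8 and SERPINB13 stood above their controls in both the e1 repression and the SOX2 knockout. So did SERPINB3, SERPINB4 and SERPINB10, which had at most 9 counts in an e1 repression library, too few to be tested there. SERPINB1 was at 27.2 to 37.2 TPM in SKMES1 and at most 0.11 TPM in KYSE140.

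In e1 repression, SERPINB2, SERPINB7, SERPINB5, SERPINB13 and SERPINB8 rose, and the other 5 genes had too few counts to be tested. SERPINB2 and SERPINB7 went from under 1.5 TPM to between 14.7 and 34.6 TPM, whereas SERPINB5, SERPINB13 and SERPINB8 rose by 2.48- to 2.83-fold. A gene was called when it passed both limits, 0.05 for the adjusted p and 1.5 for the fold change, and by that rule 9.30% of the 13792 genes tested rose (10.7% fell, and 20.0% were called in either direction). Because SERPINB2 and SERPINB7 had at most 10 counts in a control library and met the minimum count through the e1 libraries, the count of 5 of 5 is a description only. In bulk RNA, more cells of a type and more RNA per cell cannot be told apart.

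SERPINB2, also called PAI-2, inhibits urokinase. Control guides 1 and 2 gave 0.87 and 1.48 TPM, and e1 guides 1 and 2 gave 34.6 and 28.2 TPM, so the groups lay far apart. The log2 fold change was 5.63 ± 0.23 (SE; edgeR quasi-likelihood test, Benjamini-Hochberg adjusted p = 1.83e-11). SERPINB7, or megsin, whose loss in people causes a hereditary thickening of the skin of palms and soles, went from 0.49 and 0.48 TPM to 21.8 and 14.7 TPM. The log2 fold change was 5.49 ± 0.30 (adjusted p = 8.20e-10). Among the 13792 genes tested, SERPINB2 and SERPINB7 had the 37th and 42nd highest log2 fold changes.

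SERPINB5, or maspin, has a serpin fold but is not known to inhibit proteases. Its level was 41.0 and 40.7 TPM under control guides but 122 and 105 TPM under e1 guides, a log2 fold change of 1.501 ± 0.08 (edgeR, adjusted p = 2.50e-10). The 2 control libraries were almost equal, and both e1 libraries stood well above them. SERPINB8, an inhibitor of furin-type proteases, measured 9.96 and 14.8 TPM under control guides, compared with 39.99 and 22.5 TPM under e1 guides 1 and 2. The groups did not overlap (log2 fold change 1.31 ± 0.15, edgeR, adjusted p = 2.61e-06). SERPINB13, or headpin, an inhibitor of cathepsins L and K, had 19 and 30 counts under control guides compared with 49 and 55 under e1 guides, or 0.82 and 1.36 against 2.77 and 2.76 TPM. Its log2 fold change was 1.35 ± 0.31 (edgeR, adjusted p = 0.00257), and with limma on log2(TPM + 1) it was 0.86 and not called (adjusted p = 0.0857).

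Of the 5 untested genes, SERPINB3, an inhibitor of papain-like cathepsins, had 3 counts over both controls and 12 over both e1 libraries. The ratio per library total was 4.67 (95% exact interval 1.26 to 25.8, counting error only). SERPINB4, which inhibits chymotrypsin-like proteases such as cathepsin G, had 1 and 4 counts, a ratio of 4.67 (0.462 to 230). SERPINB10, or bomapin, a serpin of blood-forming cells, had 0 counts in the controls and 3 and 1 in the e1 libraries. Against a floor of 3 control counts over the group the ratio was 1.56, which leaves out the counting error of the e1 counts. SERPINB1, an inhibitor of neutrophil elastase, had 1 count in either group, and SERPINB12 had 1 count in the controls and 0 with e1 guides, so neither was measurable at this depth.

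In the SOX2 knockout, SERPINB2, SERPINB7, SERPINB13, SERPINB3, SERPINB4, SERPINB10, SERPINB5 and SERPINB8 rose, and SERPINB1 and SERPINB12 had at most 2 counts in any of these libraries. Of the 13978 genes tested, 16.3% rose (13.5% fell, and 29.7% were called in either direction). SERPINB3, SERPINB4 and SERPINB10 had 0 to 5 counts in both controls together, and SERPINB7 16, so that they met the minimum count through the knockout libraries. The count of 8 of 8 is again a description only.

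SERPINB2 was at 4.04 TPM with the AAVS1 guide, 5.26 TPM with the Chr2.2 guide, and 341, 329 and 235 TPM with SOX2 guides 2, 3 and 4. Its log2 fold change was 6.24 ± 0.23 (edgeR, adjusted p = 1.48e-09). SERPINB7 went from 0.78 and 0.74 TPM to 117, 106 and 72.4 TPM, a log2 fold change of 6.80 ± 0.33 (adjusted p = 1.13e-08). SERPINB13 went from 0.97 and 2.07 TPM to 28.9, 21.3 and 21 TPM, a log2 fold change of 4.82 ± 0.26 (adjusted p = 2.86e-08). For each of these 3 genes the lowest knockout library was more than 10 times as high as the highest control.

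SERPINB3 measured 0.30 and 0.29 TPM in the controls, whereas SOX2 guides 2, 3 and 4 gave 145, 111 and 52.5 TPM. It had 5 counts over both controls and 3714 over the 3 knockout libraries, a ratio per library total of 399 (95% exact interval 171 to 1230, counting error only; edgeR adjusted p = 1.09e-06). SERPINB4 stayed far lower, at 0.15 and 0 TPM under control guides compared with 3.77, 3.43 and 2.27 TPM under SOX2 guides. Over the groups it had 1 control count and 89 knockout counts, a ratio of 47.8 (8.36 to 1910; edgeR adjusted p = 8.86e-05). With the counts of the pair summed, the sum was called under the same test. SERPINB10 had 0 counts in both controls and 26.8, 19 and 10 in the knockout libraries (edgeR adjusted p = 6.68e-04). Against 3 control counts over the group the ratio was 10.03, which leaves out the counting error of the knockout counts. For SERPINB10, 1 count was fractional together with one of its neighbour SERPINB2.

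SERPINB5 and SERPINB8, the members already abundant in the controls, rose least. SERPINB5 went from 68.8 and 84.5 TPM to 214, 204 and 180 TPM (log2 fold change 1.58 ± 0.11, edgeR, adjusted p = 2.98e-07). SERPINB8 went from 27.9 and 30.6 TPM to 58.5, 50.03 and 49.4 TPM (log2 fold change 0.70 ± 0.09, adjusted p = 6.17e-05). With library size alone as the scaling, the median of all genes shifted to -0.21 and SERPINB8 to 0.50, under the fold limit, which left it 0.70 above that median as with TMM scaling.

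The library of SOX2 guide 4 kept the most SOX2 RNA of the 3 and had the lowest level of all 8 genes that rose. SOX2 was at 103, 125 and 221 TPM with guides 2, 3 and 4. The ratio of guide 2 to guide 4 ran from 1.18 for SERPINB5 and SERPINB8 through 1.38 for SERPINB13, 1.45 for SERPINB2, 1.62 for SERPINB7, 1.66 for SERPINB4 and 2.43 for SERPINB10 to 2.76 for SERPINB3. With 1 library per guide this has no replicate, and the part of SOX2 RNA in it was not tested. SOX2 protein was not measured in these data. The share of all risen genes that were lowest with guide 4 was not counted, so the order cannot be called particular to the serpins. Over genes in general, the guide 4 library differed from those of guides 2 and 3 by chi-squares of 12.4 and 6.35 per degree of freedom. Between guides 2 and 3 the value was 2.77. Without each library in turn, the genes tested were all still called, but SERPINB10 had too few counts to be tested without SOX2 guide 2 or guide 3, which left 7 called.

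**Figure D3:**
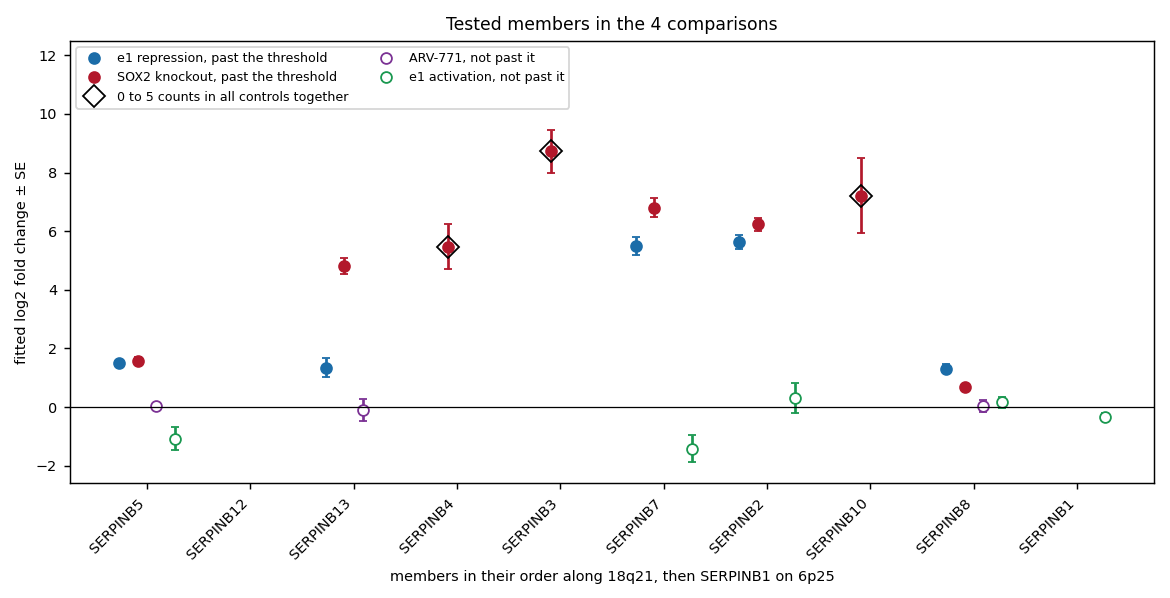
Points give the fitted log2 fold change of each tested gene with its SE (bars) in the 4 comparisons, filled where the gene was called and open where not. The values in diamonds, SERPINB4, SERPINB3 and SERPINB10, rest on 0 to 5 control counts and depend on the fit's prior count.

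The e1 guides and the SOX2 guides were compared in 1 fit of 9 libraries that tested the difference between their log2 fold changes. Of 14455 genes tested, 16.6% were called (8.21% higher in e1 repression and 8.37% lower), and among the 10 serpins SERPINB13 and SERPINB8 were. The rise of SERPINB13 was smaller in e1 repression by 3.45 ± 0.47 on the log2 scale (edgeR, adjusted p = 1.17e-04). The rise of SERPINB8 was larger in e1 repression, by 0.63 ± 0.18 (adjusted p = 0.0170), and that call was lost without negative-control guide 1 (0.46, adjusted p = 0.114), without e1 guide 1 (0.49, adjusted p = 0.0876) and without the Chr2.2 guide (0.57, adjusted p = 0.0652). For SERPINB2 the difference was -0.59 ± 0.73 (adjusted p = 0.599), for SERPINB7 -1.30 ± 1.05 (adjusted p = 0.398) and for SERPINB5 -0.06 ± 0.16 (adjusted p = 0.809). For SERPINB2 and SERPINB7, a difference of 1 on the log2 scale lay within 2 SE of 0. SERPINB4 differed by -3.50 ± 2.37 and was not called (edgeR, adjusted p = 0.304). SERPINB10 was not called either, and with 0 counts in both control groups its SE was too large to be of use. SERPINB1 and SERPINB12 had too few counts to be tested. SERPINB3 differed by -6.55 with an SE of 4.40 and was not called (adjusted p = 0.299), but was called by DESeq2 (adjusted p = 1.50e-06), without the filter (adjusted p = 1.78e-04) and without SOX2 guide 4 (-6.89, adjusted p = 0.00922).

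The genes that rose lay along the whole cluster, from SERPINB5 at one end to SERPINB8 at the other, in e1 repression and in the knockout. In both experiments SERPINB7 and SERPINB2, whose starts lie 276 and 395 kb from that of SERPINB5, had larger log2 fold changes than SERPINB5 and SERPINB8 at the cluster's ends. Of the genes beside the clusters, the list of 8 held 1 that rose in e1 repression, KDSR (0.83 ± 0.09, edgeR, adjusted p = 3.17e-06), an enzyme of ceramide synthesis 110 kb before SERPINB5. Over all genes tested there, 9.30% rose and 10.7% fell. In the knockout 1 of 8 rose, VPS4B (1.04 ± 0.08, edgeR, adjusted p = 5.02e-07), and 1 fell, the apoptosis inhibitor BCL2 (-1.28 ± 0.17, adjusted p = 5.52e-05). The shares over all genes there were 16.3% risen and 13.5% fallen. HMSD, which overlaps SERPINB8 on the same strand by 11.7 kb, was not called in either (-0.52 ± 0.45 and -0.40 ± 0.45).

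**Figure D4:**
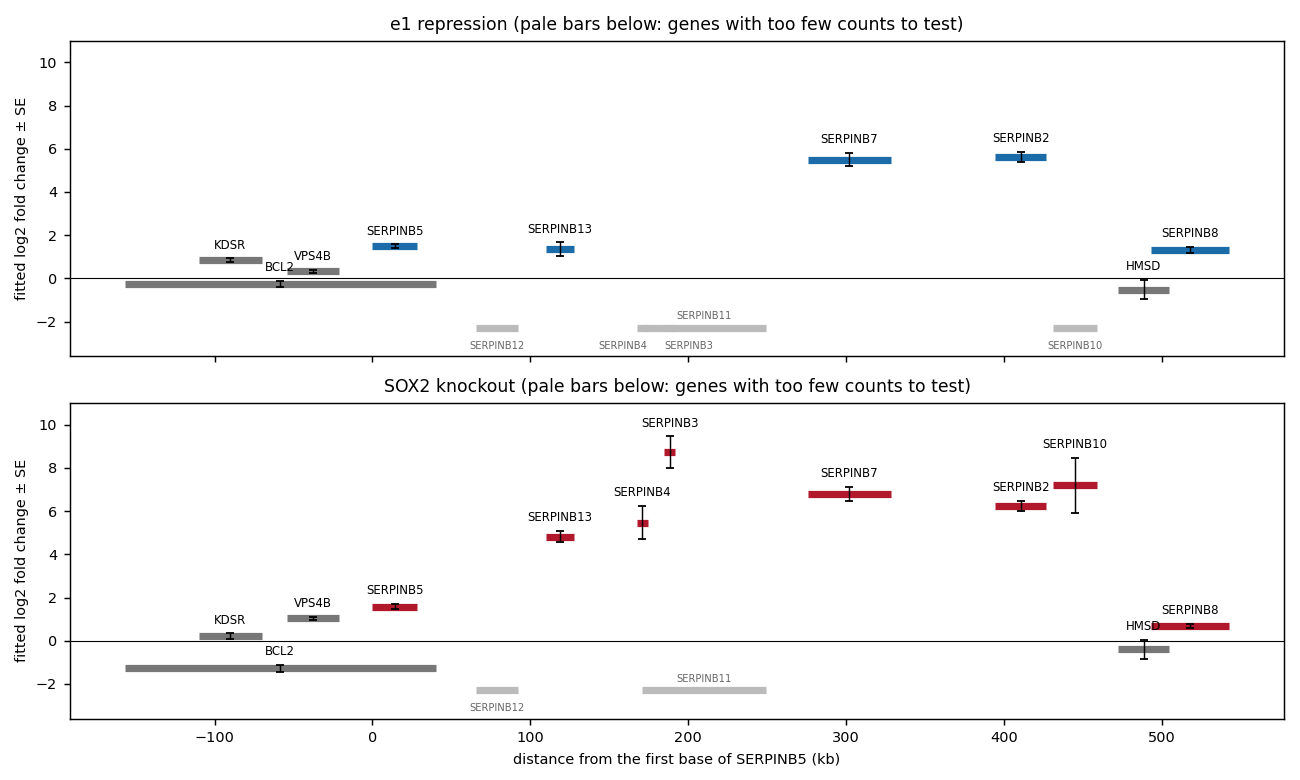
Bars mark each gene of the cluster and its neighbours at the height of its fitted log2 fold change with its SE. The upper panel is e1 repression and the lower panel the SOX2 knockout. Each bar begins at the gene's start, in kb from the first base of SERPINB5, and runs rightward for the gene's length. Minus-strand genes (SERPINB3, SERPINB4, BCL2, KDSR and VPS4B) extend leftward from their start, so their bars stand too far right by their own length. Coloured bars are clade B genes, grey bars are other genes, and pale bars at the bottom of each panel mark genes with too few counts to test.

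With ARV-771 for 6 h, none of the 3 serpins with enough counts to be tested (SERPINB5, SERPINB8 and SERPINB13) was called by edgeR. Of the 13500 genes tested, 52.9% were called (21.2% rose and 31.7% fell). SOX2 RNA was lower with ARV-771 than with the guides, but SOX2 protein was not measured in these data. The knockout guides target the coding region and the drug acted for 6 h only, so the RNA levels do not rank the loss of SOX2. SERPINB5 measured 55.4 and 59.7 TPM in DMSO compared with 34.3 and 37.8 TPM in ARV-771, so that both treated cultures lay below both controls. SERPINB8 was at 5.92 and 4.61 TPM in DMSO and at 2.50 and 5.02 TPM with ARV-771, and the groups overlapped. SERPINB13 went from 1.24 and 1.20 to 0.54 and 0.71 TPM.

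The fitted log2 fold changes, which are relative to the bulk of genes, were 0.05 ± 0.07 for SERPINB5, 0.03 ± 0.21 for SERPINB8 and -0.10 ± 0.38 for SERPINB13 (edgeR, adjusted p = 0.498, 0.900 and 0.814). None of these 3 tested genes had an unadjusted p under 0.05 in edgeR, and none of 8 did in DESeq2, whereas SERPINB5 was called as fallen with limma on log2(TPM + 1), by 0.66 (adjusted p = 0.00161). The direction of SERPINB5 and SERPINB8 depended on the scaling, which also moved the median of all genes. That median was -0.04 with TMM, -0.50 with library size alone, -0.60 with limma on TPM and -1.12 when scaled to mitochondrially encoded genes. Relative to that median, SERPINB5 was at 0.09, 0.09, -0.06 and 0.09. Scaled to the mitochondrial genes, SERPINB5, SERPINB8 and SERPINB13 were all called as fallen, at -1.03, -1.04 and -1.17, close to the median of all genes.

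SERPINB2 had 4 and 0 counts in the DMSO cultures and 1 and 2 with ARV-771, a ratio of 0.715 (95% exact interval 0.105 to 4.23). SERPINB7 had 1 and 1 counts against 2 and 0. SERPINB3 and SERPINB4 had no count in these 4 libraries, and SERPINB1, SERPINB10 and SERPINB12 had at most 2. Both SERPINB2 and SERPINB7 were thus near the floor already in DMSO, and a change was not detectable at this depth.

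**Figure D5:**
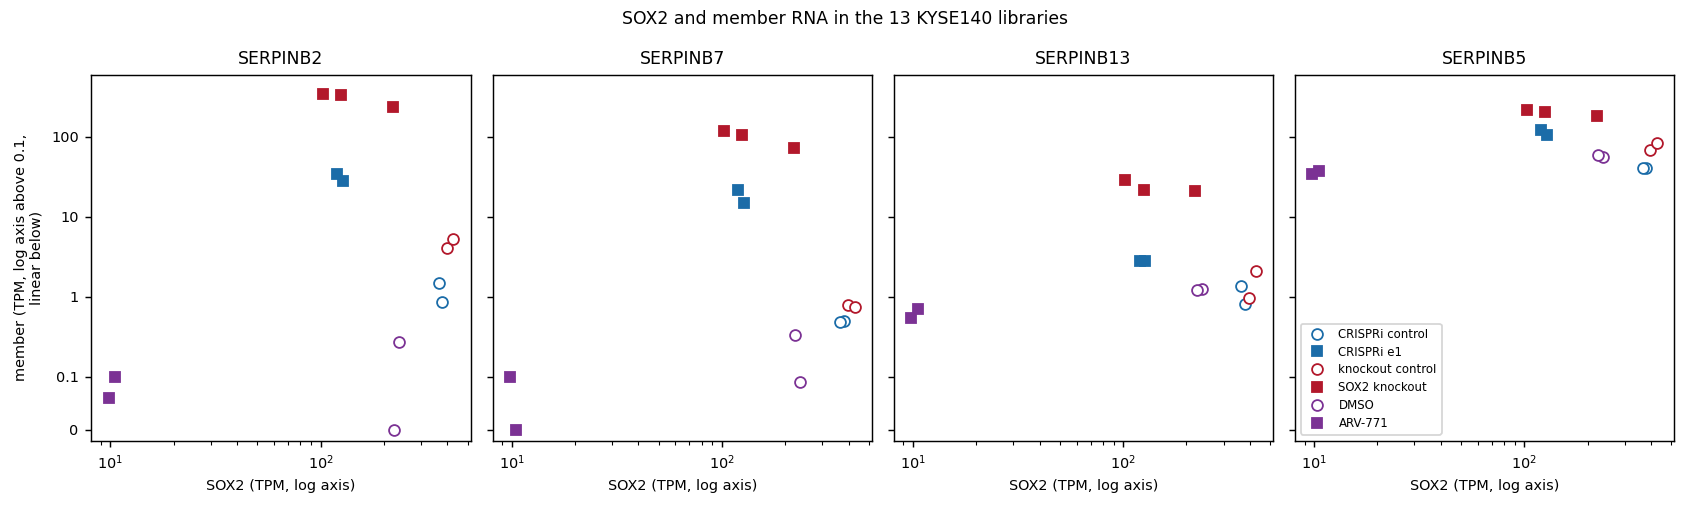
Each panel plots the level of 1 serpin (TPM; log axis above 0.1, linear below) against that of SOX2 (TPM, log axis) in the 13 KYSE140 libraries, with open circles for controls and filled squares for treated libraries of the same colour. The 2 ARV-771 libraries had the least SOX2 RNA, at 9.80 and 10.5 TPM. Their SERPINB2 was at 0.06 and 0.1 TPM, beside 0.27 and 0 TPM in their own DMSO controls, near the floor in both groups.

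In SKMES1, where e1 activation raised SOX2 RNA into the range of KYSE140 controls, none of the 5 serpins tested was called by edgeR, against 0.188% of 14859 genes (0.168% rose and 0.0202% fell). By edgeR 2 of 5 tested genes had an unadjusted p under 0.05, as did 1 of 6 by DESeq2 and 1 of 5 by limma. SERPINB5 was at 32.7 and 81.3 TPM with control guides 1 and 2 and at 29.9 and 25.7 TPM with e1 guides 1 and 3. Its log2 fold change was -1.08 ± 0.40 (edgeR, adjusted p = 0.319). The 2 control guides differed by more than the e1 guides differed from control guide 1. SERPINB7 was likewise lower in both e1 libraries than in both controls, at 3.92 and 10.1 TPM with control guides and 2.47 and 3.39 TPM with e1 guides (-1.42 ± 0.47, adjusted p = 0.291).

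Both genes were called as fallen without control guide 1, at -1.57 for SERPINB5 and -1.92 for SERPINB7, and without control guide 2 they were at -0.31 and -0.60 and not called. They were also called without the filter on low counts and in a fit of all 17 libraries. SERPINB2 measured 4.59 and 14.3 TPM under control guides, against 9.50 and 14.8 TPM under e1 guides (0.32 ± 0.52, adjusted p = 0.828). SERPINB8 was at 13.6 and 15.5 against 17.4 and 17.2 TPM (0.16 ± 0.18, adjusted p = 0.735) and SERPINB1 at 36.5 and 37.2 against 29.8 and 27.2 TPM (-0.34 ± 0.15, adjusted p = 0.373).

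The 2 lines made different sets of these serpins. SERPINB1, at most 1.71 counts in any KYSE140 library, had 288 to 528 counts in each SKMES1 library. SERPINB3, SERPINB4, SERPINB10 and SERPINB13 had 0 counts in the 4 SKMES1 libraries, and SERPINB12 had at most 2 counts in all 17. By level per length, SKMES1 controls ran from SERPINB5 (57.0 ± 34.4 TPM, SD, n = 2) and SERPINB1 (36.9 ± 0.467), which overlapped, through SERPINB8 (14.6 ± 1.34), SERPINB2 (9.46 ± 6.89) and SERPINB7 (6.99 ± 4.34), in which each gene overlapped the next. In the CRISPRi controls of KYSE140 the order was SERPINB5 (40.8 ± 0.184 TPM, n = 2), SERPINB8 (12.4 ± 3.45), and then SERPINB2, SERPINB13 and SERPINB7 at 0.485 to 1.18 TPM, the first 2 of which overlapped. In the SOX2 knockout it was SERPINB2 (302 ± 57.8, n = 3), SERPINB5 (199 ± 17.2), SERPINB3 (103 ± 46.9), SERPINB7 (98.7 ± 23.4), SERPINB8 (52.6 ± 5.09), SERPINB13 (23.7 ± 4.51), SERPINB4 (3.16 ± 0.786) and SERPINB10 (1.49 ± 0.645), in which SERPINB3 overlapped both SERPINB7 and SERPINB8.

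Of the 3 other clade B genes, SERPINB6, a cytoplasmic inhibitor of cathepsin G, rose in the knockout, from 7.11 and 7.54 TPM to 34.6, 30.1 and 20.6 TPM (2.11 ± 0.24, edgeR, adjusted p = 1.63e-05). It was not called in e1 repression (0.12 ± 0.24, adjusted p = 0.732), and the difference was called (-1.97 ± 0.38, adjusted p = 0.00137). SERPINB9, the inhibitor of granzyme B, had 0.12 TPM at most in KYSE140 and 6.81 to 8.61 TPM in SKMES1. SERPINB11, on the strand opposite SERPINB3 and overlapping it, stayed under 1 TPM in every library. Whether counting used strand is not given in the sources used here, so reads of the 2 genes may not have been kept apart.

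A list of 18 proteases was set beside the serpins, and whether a clade B serpin binds each of them was not tested. In e1 repression 4 of 11 tested rose (CTSS, KLK5, KLK7 and PLAU) and 1 fell (CTSV), against 9.30% risen and 10.7% fallen over all genes. The median log2 fold change of the tested proteases was 0.35, beside 0.00 over all genes. In the knockout 8 of 12 rose (CASP1, CTSL, CTSS, CTSV, KLK5, KLK7, PLAU and PRSS8) and PLAT fell, against 16.3% risen and 13.5% fallen over all genes. The median there was 1.54, beside -0.01 over all genes. Some of these, KLK5 and KLK7 among them with at most 4 counts in a control library, met the minimum count through the treated libraries. The counts and medians of this list are therefore descriptions only. PLAU, which encodes urokinase, the target of SERPINB2, went from 1.62 and 3.32 to 82.7 and 66.0 TPM in e1 repression (4.91 ± 0.18, edgeR, adjusted p = 5.77e-12). In the knockout it went from 4.58 and 2.15 to 158, 153 and 142 TPM (5.96 ± 0.17, adjusted p = 2.66e-10).

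Kallikreins KLK5 and KLK7, serine proteases of the shedding epidermis, were near the floor in the knockout controls and at 178 to 382 and 111 to 170 TPM with SOX2 guides. CTSL, which encodes cathepsin L, a target of SERPINB3 and SERPINB13, was under the fold limit in e1 repression (0.35 ± 0.13) and rose in the knockout (1.49 ± 0.14, adjusted p = 3.24e-06, edgeR). ELANE, CTSG and PRTN3, granulocyte proteases that SERPINB1 is known to inhibit, and CMA1, the mast cell chymase, averaged under 1 TPM in every group. With ARV-771, 3 of 10 tested proteases rose (CTSL, CTSV and ST14) and 1 fell (PRSS8), against 21.2% risen and 31.7% fallen over all genes. In e1 activation 0 of 9 were called, against 0.188% of all genes.

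Of 10 regulators tested, 3 rose and 4 fell in e1 repression, 5 rose and 3 fell in the knockout, and 8 fell with ARV-771. Over all genes, 9.30% rose and 10.7% fell in e1 repression, 16.3% rose and 13.5% fell in the knockout, and 31.7% fell with ARV-771. FOSL1 and JUNB, subunits of the AP-1 factor, rose in both loss experiments, JUNB by 1.23 ± 0.08 and 2.22 ± 0.11 on the log2 scale. FOSL1 went from 9.97 and 11.8 to 146 and 124 TPM in e1 repression (3.57 ± 0.10, edgeR, adjusted p = 5.01e-13), and from 31.4 and 30.7 to 111, 128 and 126 TPM in the knockout (2.14 ± 0.09, adjusted p = 3.14e-09). With ARV-771 it fell from 5.35 and 6.35 to 0.99 and 1.00 TPM (-1.84 ± 0.32, adjusted p = 1.60e-05). In SKMES1, FOSL1 was at 327 to 631 TPM in the 4 libraries. TP63, a master regulator of squamous epithelium, fell in e1 repression (-0.62 ± 0.05), in the knockout (-1.22 ± 0.08) and with ARV-771 (-1.48 ± 0.05). The part of any of these regulators in the serpin levels was not tested.

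Markers of squamous epithelium went both ways in e1 repression, and all but TP63 rose in the SOX2 knockout. Their sum of 10 genes was 6640 to 6674 TPM in the CRISPRi controls and 10793 to 10942 TPM with e1 guides. There 4 of 10 rose (IVL, KRT14, KRT6A and SFN) and 3 fell (KRT13, PKP1 and TP63), at a median log2 fold change of 0.37. The shares over all genes were 9.30% risen and 10.7% fallen. The sum was 7746 to 7754 TPM in the knockout controls and 26179 to 31317 TPM with SOX2 guides. In the knockout 9 of 10 rose and TP63 fell, at a median of 1.96, against 16.3% risen and 13.5% fallen over all genes. Involucrin (IVL), a protein of the suprabasal layers, was among those that rose in both. Among the markers of other cell types, the sum of the 5 leukocyte markers was 0.84 to 1.78 TPM in the CRISPRi controls, 25.2 to 26.7 TPM with e1 guides, 3.61 to 4.27 TPM in the knockout controls and 54.4 to 71.3 TPM with SOX2 guides. CD68, a lysosomal protein, made up nearly all of that sum, and PTPRC, the defining leukocyte gene, stayed under 1 TPM. The 5 fibroblast markers summed to 15.1 to 17.3, 38.0 to 38.9, 11.98 to 22.2 and 39.5 to 44.2 TPM in the same groups, of which COL1A1 alone averaged at least 1 TPM in the treated groups. COL1A1 rose in both experiments, whereas PDGFRA, the other fibroblast marker tested, fell in both, from 1.45 to 1.62 TPM to 0.08 to 0.71 TPM in e1 repression (edgeR, adjusted p = 0.00124) and from 1.82 to 3.02 TPM to 0 to 0.37 TPM in the knockout (adjusted p = 1.12e-05). COL1A2 and COL3A1 averaged under 1 TPM in KYSE140.

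For the 6 serpins with a mean of at least 1 TPM in KYSE140, the genes most alike in pattern were sought among 13983 genes by Pearson correlation of log2(TPM + 1) over the 13 libraries. These libraries share experiments and controls, so the coefficients are descriptions. SERPINB3 was most like ABCA12 (r = 0.997) and RPTN (0.997), a lipid transporter and a matrix protein of cornifying epidermis. It met the mean of 1 TPM only through the knockout libraries, at 52.5 to 145 TPM, and was at 0.89 TPM at most in the other KYSE140 groups. Its coefficients therefore mostly reflect a high level in the knockout and a level near the floor elsewhere. SERPINB7 was most like IL18 (0.994) and KRT75 (0.994), and SERPINB13 like AZGP1 (0.994) and KLK14 (0.993). SERPINB2 was most like GS1-600G8.5 (0.994), SERPINB5 like SBDS (0.986) and FGFBP1 (0.981), and SERPINB8 like UBE2K and MAFF (both 0.984).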

How the data were processed

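The authors aligned reads of poly-A selected, directional RNA libraries to hg19 with Bowtie2 and counted GENCODE genes with RSEM; versions and the strand setting are not given in the sources used here. The deposited files hold the expected counts that the authors made with RSEM and their TPM values, per gene and library with no pooling. TPM was used for levels. The expected counts, rounded to integers, were analysed in edgeR 4.0.16 (R 4.3.3): TMM scaling, filterByExpr with a minimum count of 10 and a minimum total of 15, the quasi-likelihood test within the libraries of each comparison, and Benjamini-Hochberg adjustment over all genes tested. The limits, 0.05 for the adjusted p and 1.5 for the fold change, follow the study's methods. Ratios of pooled counts have exact 95% intervals, except those against the floor of 3 counts, which leave out the counting error of the treated counts. The intervals and the floor cover counting error only. PCR copies were not removed by molecular identifiers.

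The design without a replicate block was used, since guides share only a number. Replicate libraries were compared by chi-square and differed by 2.16 to 26.6 per degree of freedom, so none was a copy. Alternatives were RLE or library size scaling, no filter, DESeq2 1.42.0, limma 3.58.1 with trend on log2(TPM + 1) and log2(TPM + 0.1) at a mean TPM of at least 1, all 17 libraries in 1 fit, SERPINB3 and SERPINB4 summed, a replicate block, scaling to 37 mitochondrially encoded genes for ARV-771, and leaving out each library. The tests were tried on simulated data first. All 10 serpins were named in every comparison; of the other lists, genes called or at a mean of at least 1 TPM could be named. The members, lists and tests were chosen with earlier results of these data known. Gene spans come from GENCODE v44 lifted to GRCh37 and promoter windows from RefSeq (GRCh38.p14). PECAM1, an endothelial marker, was not analysed here. Some genes outside the 10 serpins are not reported here.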

Additional observations from a re-analysis of the deposited data

Results flagged for a closer look

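The responses of SERPINB13 and SERPINB8 to the e1 guides and to the SOX2 guides differed when the difference itself was tested. For SERPINB13 the log2 fold change was lower by 3.45 in e1 repression (difference -3.45 ± 0.47, SE; edgeR adjusted p = 1.17e-04), with means of 2.76 TPM (n = 2) with e1 guides and 23.7 TPM (n = 3) with SOX2 guides against 1.09 and 1.52 TPM in their controls. That call was kept in each of the 15 alternatives, with differences from -3.71 to -3.11. For SERPINB8 the difference was 0.63 ± 0.18 (adjusted p = 0.0170), from 1.31 in e1 repression and 0.70 in the knockout, and it was not called in 3 of 15 alternatives, each of which left out 1 library. The CRISPRi and Cas9 systems had separate control cells, so the system and the target cannot be told apart in either difference.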

How the results depend on the processing

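In e1 repression and the SOX2 knockout, each tested serpin kept a positive log2 fold change under every alternative that gave it a value. SERPINB13 in e1 repression lost its call with limma on log2(TPM + 1) and on log2(TPM + 0.1) (adjusted p = 0.0857 and 0.0956), which use TPM in place of counts, and SERPINB8 in the knockout with library size scaling. Over the left-out libraries the number called stayed at 5 in e1 repression and ran from 7 to 8 in the knockout, where SERPINB10 could not be tested without SOX2 guide 2 or 3. With ARV-771 the number of serpins called went from 0 to 1 with limma on either TPM scale and to 3 with mitochondrial scaling. Reversed values there were SERPINB5 at -0.41 (library size), -0.66 and -0.67 (limma, pseudocounts of 1 and 0.1) and -1.03 (mitochondrial scaling), SERPINB8 at -0.43, -0.44, -0.55 and -1.04 under the same 4 and -0.089 without ARV-771 culture B (left-out range -0.089 to 0.14), and SERPINB13 at 0.056 without culture A (-0.30 to 0.056). Left-out libraries gave 0 called. In e1 activation the number called went from 0 to 2 without the filter and in the fit of all 17 libraries, and ran from 0 to 2 over left-out libraries. Without control guide 1, SERPINB8 was at -0.013 (range -0.013 to 0.37) and SERPINB2 at -0.25 (-0.25 to 1.35), and without e1 guide 3 SERPINB2 was at -0.042. The cause was not tested. In the difference between e1 repression and SOX2 knockout, 1 to 2 serpins were called over left-out libraries, and SERPINB5 turned to 0.078 with library size scaling and ran from -0.20 to 0.071 over left-out libraries, above 0 without e1 guide 2, the AAVS1 guide or SOX2 guide 2. Of 381 single-gene values under alternatives, 348 kept direction and side of the threshold. Guides or cultures with the same number or letter shared only that name: their deviations from group means correlated at 0.02 in e1 repression and -0.03 with ARV-771. With the replicate block 5 serpins were called in e1 repression and 0 with ARV-771, as without it. No paired analysis was possible in the knockout and in e1 activation because the groups shared fewer than 2 numbers. In KYSE140, SERPINB1 and SERPINB12 and, outside the knockout, SERPINB3, SERPINB4 and SERPINB10 had too few counts to be tested.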
